A study of Mus musculus with 8 samples.

Results

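A set of 10 genes of iron handling in the liver was followed: the hepcidin genes Hamp and Hamp2, Trf (transferrin), Tfrc and Tfr2 (transferrin receptors), Hfe and Hfe2 (haemojuvelin, now named Hjv), Slc40a1 (ferroportin), and the ferritin chains Fth1 and Ftl1. They were chosen by gene name, and every array probe that carried one of the names was read, which gave 13 probes of 9 genes. Tfr2 appears on the array under another spelling and was found through its transcript accession, so the set holds 14 probes of 10 genes among 55681 non-control probes. All 14 probes were well above background on 8 of 8 arrays.

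Liver RNA was measured on 8 single-colour Agilent arrays of 62976 spots, 4 from mice whose dam had passed on a deleted miR-379/miR-410 microRNA cluster (called KO here) and 4 from wild-type littermates. All animals were C57BL/6J, were delivered by caesarean section on day E19.5 of gestation and were killed 4 h later. The deletion is constitutional, so every cell type of the KO liver carried it. A dissected piece of the large lobe was used, and in such bulk tissue fewer cells of a type and less RNA per cell cannot be told apart.

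A single slide, read in 1 scan, carried all 8 arrays, the KO ones in its column 1 and the wild-type ones in its column 2, and effects of the column and of the genotype cannot be told apart. Between 58.6% and 66.2% of non-control spots per array exceeded background clearly, and 0 were saturated. Mirg, a noncoding RNA of the deleted locus, was lower in KO livers by both of its probes, with differences of -2.70 and -2.58 (log2, adjusted p = 0.000279 each, limma). The female-specific Xist was well above background in KO 1, KO 2 and KO 4 and in no wild-type liver, and the Y-linked Ddx3y in KO 3, KO 4 and wild-type 1, 2 and 4. The sexes were thus not balanced between the groups, KO 4 carried both transcripts, and wild-type 3 carried neither well above background. With Ddx3y as a covariate the Hamp difference was -1.71 (adjusted p = 0.396, limma), and 0 of the 14 probes were called. Since KO 4 carried both transcripts and wild-type 3 neither, this covariate does not settle the sex of those arrays. The part of sex in the Hamp difference was not tested. KO 4 and wild-type 4 held the smallest shares of extreme values (14.7% and 15.4% of kept probes). Replicate 4 of each group may therefore not be an independent animal, in which case n = 4 overstates the number of animals and the p-values from 8 arrays are too small. Results are also given for the 6 arrays of replicates 1 to 3. Wild-type 1 stood apart in the other way and held the highest or the lowest value of the 8 arrays for 47.7% of kept probes.

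Hepcidin is a peptide hormone that the liver secretes into the blood. It binds ferroportin, the only known cellular iron exporter of mammals, and causes its breakdown, so that less iron leaves gut cells, macrophages and hepatocytes. Hepatocytes adjust Hamp transcription to iron through bone morphogenetic protein (BMP) and SMAD signalling, in which HFE, transferrin receptor 2 and haemojuvelin take part, and to inflammation through interleukin-6 and STAT3. The late fetal and newborn liver is also a site of red blood cell formation, and erythroid precursors take up transferrin iron through the receptor encoded by Tfrc.

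The mouse has a pair of neighbouring hepcidin genes, and the sequences are shown because they decide what each hepcidin probe can tell apart. The Hamp probe lies at chr7:31727490-31727549 and the Hamp2 probe at chr7:31707520-31707579, both on the minus strand of mm9. The bases of each probe up to and including the stop codon, which code for the C-terminal end of the peptide, are given 5′ to 3′, with capitals at the bases that differ.
Hamp: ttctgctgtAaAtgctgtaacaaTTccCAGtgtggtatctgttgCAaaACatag
Hamp2: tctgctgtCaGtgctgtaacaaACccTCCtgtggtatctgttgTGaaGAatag
Of 53 aligned bases, 42 were identical and 11 differed, and the differences lay in several places spread along the probe. How far one transcript binds the other probe was not tested.

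The windows of 250 bases upstream of the 2 genes are shown because Hamp is known as a target of BMP-SMAD and STAT3 signalling. They were taken from RefSeq on GRCm38.p6, chr7:30944030-30944279 for Hamp and chr7:30924182-30924431 for Hamp2, both on the minus strand. Capitals mark matches to GGCGCC, the core of the BMP-responsive element, and to TTCNNNGAA, the pattern STAT factors bind. Each pattern reads the same on both strands.
Hamp: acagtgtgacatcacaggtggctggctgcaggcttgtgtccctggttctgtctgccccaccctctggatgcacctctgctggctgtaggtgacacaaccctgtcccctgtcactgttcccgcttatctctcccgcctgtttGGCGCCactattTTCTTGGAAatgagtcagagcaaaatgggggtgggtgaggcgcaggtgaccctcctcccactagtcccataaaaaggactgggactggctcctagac
Hamp2: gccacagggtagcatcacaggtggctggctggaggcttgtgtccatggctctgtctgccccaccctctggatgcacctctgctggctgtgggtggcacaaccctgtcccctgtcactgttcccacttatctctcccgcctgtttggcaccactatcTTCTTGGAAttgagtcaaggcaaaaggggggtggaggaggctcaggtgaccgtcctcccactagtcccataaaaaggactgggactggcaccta
The windows were identical at 227 of 247 aligned bases (91.9%). TTCNNNGAA was found in both, starting 97 bases before the start in Hamp and 94 in Hamp2, while GGCGCC was found in the Hamp window only, starting 109 bases before the start. Of 32851 upstream windows of the same length, 9.59% held GGCGCC and 7.02% held TTCNNNGAA. Windows were given for 7 of the 10 genes, and among these Tfrc also held GGCGCC, while TTCNNNGAA was found in Hamp and Hamp2 only. These matches are descriptions of the letters and not binding sites.

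None of the 14 probes passed the test between KO and wild-type livers. Values are log2 processed signals relative to the 75th percentile of the same array, differences are KO minus wild-type with the standard error (SE), and the test was limma with Benjamini-Hochberg adjustment over all 33754 kept probes and a threshold of 0.05. With these arrays 73 kept probes were called, 0.216% of those tested, and 60 of them were lower in KO livers (0.178%) and 13 higher (0.0385%). Among the 14 probes 3 had an unadjusted p under 0.05, the Hamp probe and 2 of Tfrc, where 12.7% of all kept probes did. With 1 probe per gene the count was 2 of the 10 genes, where 12.9% of all genes had one. The 2 groups did not overlap in 2 of the 14 probes, both of Tfrc, where 8.62% of all kept probes did not overlap. On the 6 arrays without replicate 4, 11 probes were called (0.0326%) and again 0 of the 14. Of the 14 differences 8 were positive and 6 negative, where 57.7% of all kept probes were higher in KO livers. The median of the 14 was 0.02, against 0.03 for all kept probes. The median 95% interval of a kept probe reached 0.27 to either side.

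**Figure D1:**
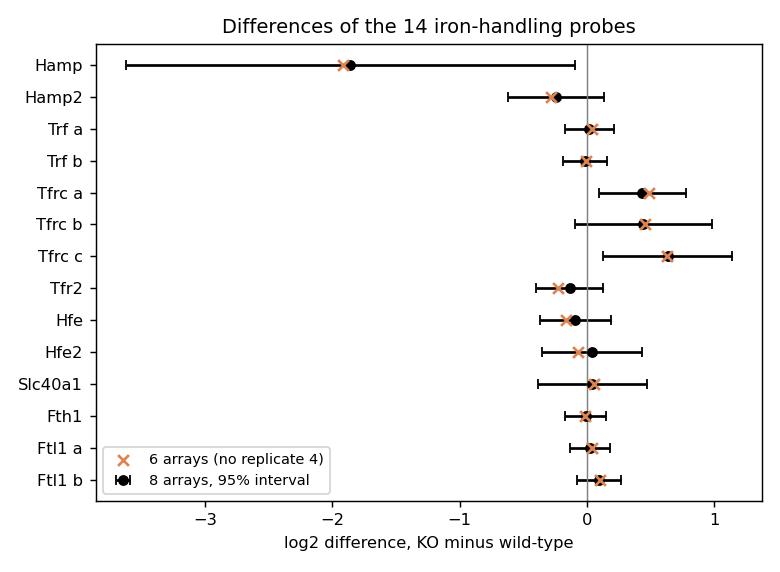
Log2 difference, KO minus wild-type, of the 14 probes on 8 arrays (black points with 95% intervals) and on the 6 arrays without replicate 4 (orange crosses). Hamp lies farthest from 0 at -1.86 with the widest interval, the Tfrc probes lie between 0.44 and 0.63, and the other probes lie between -0.24 and 0.10.

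Hamp, the gene of the iron-regulating hormone, was lower in KO livers on average and had the largest difference of the set, but its spread was wide and the test did not call it. Its level was 3.92, 1.99, 2.83 and 2.36 in KO 1 to 4, against 7.01, 4.17, 3.31 and 4.03 in wild-type 1 to 4. KO 1 lay above wild-type 3, so the groups overlapped by 1 KO array, and wild-type 1 lay far above every other array. On the scanner's linear scale the processed signal was 8804, 2437, 4188 and 2841 in KO livers, against 83004, 9129, 5310 and 8715 in wild-type livers. The mean level was 2.78 ± 0.84 in KO livers and 4.63 ± 1.63 in wild-type livers (SD, n = 4 each). The difference of -1.86 (SE 0.77), a KO signal of 0.276 times the wild-type signal, had a 95% interval from -3.62 to -0.09 and an adjusted p of 0.372 (limma). On the 6 arrays the difference was -1.92 with an adjusted p of 0.742 (limma). Without wild-type 1 the difference was -1.06 with an adjusted p of 0.360 (limma).

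The spread of Hamp within groups was among the largest on the array. Its pooled SD within groups was 1.30 log2, above that of 99.7% of kept probes, whose median was 0.17. From KO 2, the lowest array, to wild-type 1, the highest, the Hamp signal spanned 5.02 log2, or 32.5-fold. Even within the KO livers, KO 1 and KO 2 stood 1.93 log2 apart, so animals of 1 genotype differed by as much as the group means did.

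Hamp2, the second mouse hepcidin gene, was read near the lower limit of the arrays. Its level was -4.31, -5.01, -4.70 and -4.44 in KO livers, against -4.11, -4.56, -4.49 and -4.31 in wild-type livers. The groups overlapped, with KO 2 lowest and wild-type 1 highest, the same arrays that were lowest and highest for Hamp. The processed signals ran from 19.1 to 29.4 in KO livers and from 21.5 to 37.2 in wild-type livers. These levels lay 0.79 to 1.99 log2 above the dimmest probe that was well above background on the same KO array, and 0.60 to 1.54 log2 above it on the wild-type arrays. The difference was -0.24 (SE 0.17, adjusted p = 0.556, limma) on 8 arrays and -0.28 (adjusted p = 0.785) on 6. Hamp2 spanned 0.90 log2 over the 8 arrays, against 5.02 for Hamp.

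**Figure D2:**
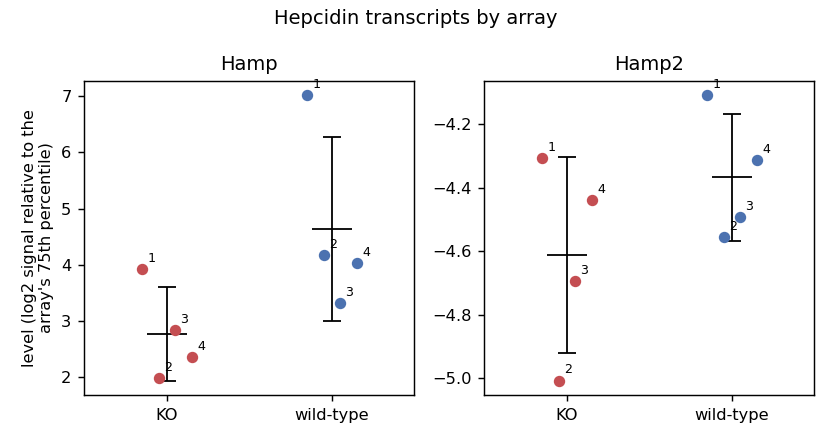
Levels of Hamp (left) and Hamp2 (right) by array, in log2 signal relative to the array's 75th percentile, with KO in red and wild-type in blue, the replicate number beside each point, and the mean ± SD as lines. Wild-type 1 reached 7.01 for Hamp while the other 7 arrays lay between 1.99 and 4.17, and the 2 panels have separate scales.

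Tfrc, the receptor that brings transferrin iron into cells and that erythroid precursors carry in large amounts, was higher in KO livers by all 3 of its probes, with adjusted p-values that missed the threshold. Probe a, at chr16:32632255-32632314 on the plus strand of mm9, read 3.60, 3.70, 3.91 and 3.80 in KO livers, against 2.91, 3.55, 3.27 and 3.52 in wild-type livers. Probe b, at chr16:32620470-32620529, read 2.12, 2.08, 2.70 and 2.45 in KO livers, against 1.29, 2.38, 1.87 and 2.05 in wild-type livers. Every KO array lay above every wild-type array with probe a, while wild-type 2 lay among the KO arrays with probe b. Probe c, whose 60 bases span 217 bases of genome at chr16:32624877-32625093 and so cross at least 1 intron, read -1.48, -1.63, -0.93 and -1.24 in KO livers, against -2.55, -1.67, -1.71 and -1.88 in wild-type livers. Its groups did not overlap either, although KO 2 and wild-type 2 lay close together. With all 3 probes KO 3 was highest and wild-type 1 lowest.

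The size of the Tfrc difference was alike in the 3 probes. It was 0.44 (SE 0.15, adjusted p = 0.291, limma) with probe a, a KO signal of 1.35 times the wild-type signal. It was 0.44 (SE 0.23, adjusted p = 0.467) with probe b and 0.63 (SE 0.22, adjusted p = 0.304) with probe c. On the 6 arrays the differences were 0.49, 0.46 and 0.63, with adjusted p-values of 0.676, 0.769 and 0.727 (limma). Probe a was printed in 10 spots per array, whose SD lay between 0.02 and 0.05 log2 on each array (9 spots were used on KO 3). Without wild-type 1 the differences were smaller, at 0.30, 0.24 and 0.43.

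**Figure D3:**
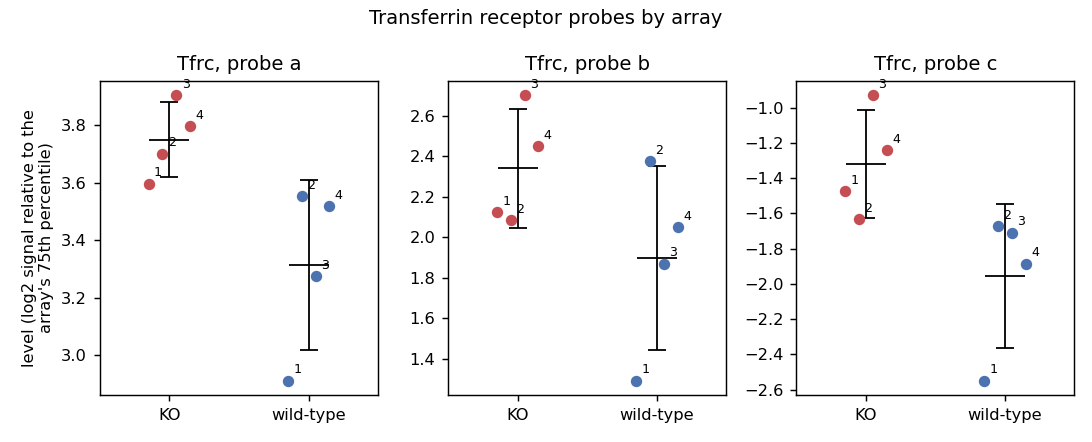
Levels of the 3 Tfrc probes by array, in log2 signal relative to the array's 75th percentile, with KO in red and wild-type in blue, the replicate number beside each point, and the mean ± SD as lines. KO arrays lay above all wild-type arrays in panels a and c, wild-type 2 lay among them in panel b, and wild-type 1 was lowest in all 3 panels.

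Erythroid markers were read beside Tfrc, since erythroid precursors are a source of its transcripts. Of 22 erythroid markers listed, all were kept, 20 were higher in KO livers and 2 lower, and none was called. Of 23679 genes represented by 1 probe each, 56.7% were higher in KO livers. The median difference was 0.28 for the markers, against 0.03 over those genes. The mean level of the list was between 4.93 and 5.01 in the KO livers, against 4.42 to 4.95 in the wild-type livers, so wild-type 2 reached the KO range. Wild-type 1 was lowest for 16 of the 22 markers, where it was lowest for 26.6% of all genes. Without wild-type 1 the median was 0.14, with 19 markers higher. The part that erythroid cells have in the Tfrc values was not tested.

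Of the erythroid markers with the smallest p, Epb4.2, Ermap and Kel were higher in KO livers and only Hemgn was lower. Epb4.2 (protein 4.2 of the red cell membrane skeleton) differed by 0.46 (adjusted p = 0.257, limma), Ermap (an erythroblast membrane protein) by 0.32 (adjusted p = 0.408) and Kel (the Kell blood group protein) by 0.35 (adjusted p = 0.423). Hemgn (hemogen, a nuclear protein of blood precursors) went the other way at -0.27 (adjusted p = 0.303).

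Tfr2, Hfe and Hfe2 encode the membrane proteins through which hepatocytes sense iron ahead of hepcidin, and none differed clearly between the groups. Tfr2, the second transferrin receptor, at chr5:138028646-138028705, read 5.29, 5.30, 5.66 and 5.57 in KO livers, against 5.76, 5.51, 5.67 and 5.43 in wild-type livers. KO 1 and KO 2 were the lowest arrays, and the other KO arrays lay within the wild-type range. The difference was -0.14 (SE 0.12, adjusted p = 0.637, limma) on 8 arrays and -0.23 (adjusted p = 0.765) on 6. Hfe, the gene altered in the commonest form of human haemochromatosis, at chr13:23795710-23795769, read 1.61, 1.64, 1.58 and 1.70 in KO livers, against 2.09, 1.68, 1.55 and 1.57 in wild-type livers. Apart from wild-type 1, the arrays lay within a narrow band. The difference was -0.09 (SE 0.12, adjusted p = 0.770), and 0.03 without wild-type 1.

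Hfe2, the BMP co-receptor haemojuvelin, at chr3:96332113-96332172, read -0.13, -0.29, 0.12 and 0.08 in KO livers, against 0.40, -0.24, -0.25 and -0.31 in wild-type livers. Wild-type 1 was the highest array and the other wild-type arrays were close to each other. The difference was 0.04 (SE 0.17, adjusted p = 0.932, limma) on 8 arrays, -0.07 on 6 arrays, and 0.21 without wild-type 1, so its sign depended on which arrays were used.

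Slc40a1, the iron exporter that hepcidin binds, is carried by macrophages of the liver and by hepatocytes. At chr1:45965255-45965314 on the minus strand it read 4.11, 3.69, 3.46 and 3.57 in KO livers, against 4.08, 3.32, 3.69 and 3.56 in wild-type livers. The groups covered nearly the same range, and replicate 1 was the highest array in both. The difference was 0.04 (SE 0.19, adjusted p = 0.939, limma), with a 95% interval from -0.39 to 0.47. Macrophage markers, listed beside it as a source of ferroportin, had a mean level of 3.02 to 3.29 in KO livers and 3.14 to 3.47 in wild-type livers. All 14 of them were kept, 2 were higher and 12 lower in KO livers, where 56.7% of all genes were higher. None was called and the median difference was -0.09. Wild-type 1 was highest for 9 of the 14. Clec4f, a lectin receptor of Kupffer cells, read 3.54, 3.99, 3.53 and 3.66 in KO livers, against 4.38, 4.13, 4.01 and 4.02 in wild-type livers. Every KO array lay below every wild-type array, although KO 2 and wild-type 3 lay close together. The difference was -0.45 (SE 0.13, adjusted p = 0.226, limma). Clec4f had the smallest p of the list, a choice that favours separate groups, and 8.62% of all kept probes did not overlap. The receptor genes Fcgr1, Vsig4 and Marco differed by -0.39, -0.34 and 0.33 (adjusted p = 0.397, 0.439 and 0.537).

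Transferrin, the iron carrier of blood plasma, and ferritin, the intracellular iron store, were the steadiest members. Trf read 9.67 to 9.75 in KO livers and 9.48 to 9.80 in wild-type livers with probe a (chr9:103112826-103112885), and 9.24 to 9.34 in KO livers and 9.17 to 9.42 in wild-type livers with probe b (chr9:103111207-103111266). The KO range lay inside the wild-type range with both probes, and wild-type 1 was lowest and wild-type 2 highest. The differences were 0.02 (SE 0.09, adjusted p = 0.935, limma) and -0.01 (SE 0.08, adjusted p = 0.954).

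The ferritin heavy chain Fth1, at chr19:10059485-10059544, read 8.76, 8.78, 8.78 and 8.76 in KO livers, against 8.81, 8.89, 8.66 and 8.76 in wild-type livers. The KO arrays were nearly identical and lay within the wild-type range. Its difference was -0.01 (SE 0.07, adjusted p = 0.966, limma). The light chain Ftl1 read 8.96 to 9.04 in KO livers and 8.87 to 9.05 in wild-type livers with probe a (chr7:52713309-52713368). With probe b, whose 60 bases span 482 bases at chr7:52714014-52714495 and cross at least 1 intron, it read 7.07 to 7.23 in KO livers and 6.95 to 7.14 in wild-type livers. The groups overlapped with both probes, and wild-type 1 was the lowest array. The Ftl1 differences were 0.03 (SE 0.07, adjusted p = 0.897) and 0.10 (SE 0.08, adjusted p = 0.605). Over the 5 probes of Trf, Fth1 and Ftl1 the pooled SD within groups ran from 0.06 to 0.10 log2, each below the median of all kept probes (0.17), and their 95% intervals left room for differences of at most 0.27 to either side. Hamp and the ferritins thus lay at opposite ends of the spread of kept probes, as 3.59% of them had a smaller SD than probe a of Ftl1.

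Across the set, wild-type 1 held more extreme values than any other array. Wild-type 1 was the highest array for 5 of the 14 probes and the lowest for 7, together 85.7% of the probes, against 47.7% of all kept probes. It was highest for Hamp, Hamp2, Tfr2, Hfe and Hfe2, and lowest for all Tfrc, Trf and Ftl1 probes. KO 4 held no extreme value of the 14, and the other arrays held between 1 and 5. The probes of a gene share its transcripts, so these counts are not over independent members. Of the 10 genes read by 1 probe each, wild-type 1 was extreme for 8.

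**Figure D4:**
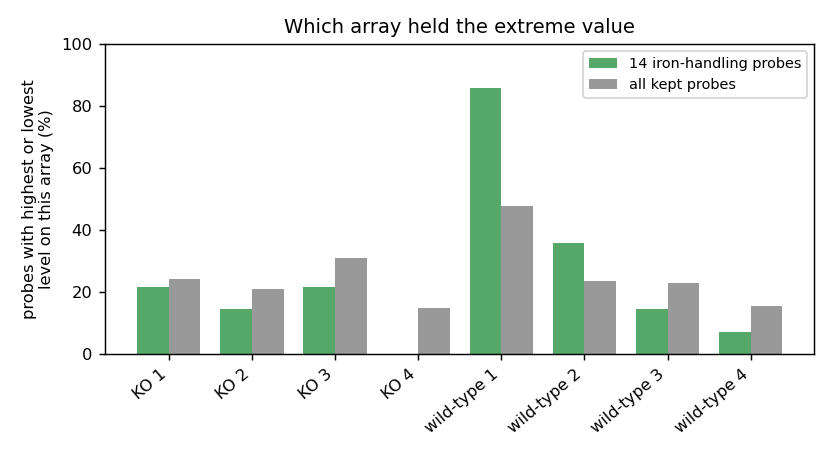
Percent of probes whose highest or lowest level of the 8 arrays fell on each array, for the 14 iron-handling probes (green) and for all kept probes (grey), with the KO arrays to the left of the wild-type arrays. Wild-type 1 held an extreme in 85.7% of the 14 probes and in 47.7% of all kept probes.

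Beyond the 10 genes, none of the genes listed for the control of hepcidin by BMP and SMAD passed the test. All 24 were kept, 8 were higher and 16 lower in KO livers, and the median difference was -0.10. Of all genes 56.7% were higher in KO livers, the share to read beside this list and those that follow. An unadjusted p under 0.05 was found for 7 of the 24, where 12.9% of all genes had one. The count was 5 of 13 for heme and haemoglobin handling and 4 of 20 for iron transport and reduction. It was 3 of 18 for iron regulatory proteins and iron-sulfur clusters and 2 of 13 for interleukin-6 and STAT3. It was 2 of 22 for erythroid, 1 of 14 for macrophage and 2 of 12 for hepatocyte markers. The BMP and SMAD list holds activators and inhibitors of the pathway together. Over all kept probes 8.62% did not overlap between the groups. The 4 genes of the list with the smallest p, a choice that favours separate groups, had every KO array below every wild-type array. The first was Fgl1, a secreted hepatocyte protein known to bind BMP ligands. Fgl1 read 6.23, 5.90, 6.49 and 6.30 in KO livers, against 7.33, 6.89, 6.65 and 6.74 in wild-type livers, a difference of -0.67 (SE 0.17, adjusted p = 0.187, limma). Neo1, neogenin, which binds haemojuvelin, differed by -0.23 (adjusted p = 0.209). Smad9, a BMP-activated SMAD, differed by -0.66 (adjusted p = 0.230), and Atoh8, a transcription factor known to activate Hamp, by -0.80 (adjusted p = 0.236). Atoh8 was dim, at -3.97 to -3.56 in KO livers and -3.42 to -2.20 in wild-type livers. Wild-type 1 was the highest array for 14 of the 24 genes, where it was highest for 22.1% of all genes, and without it the median was -0.01.

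Within this list, 3 genes are named after their values were seen. Bmp6, the BMP ligand that reports iron to hepatocytes, read -2.66 to -2.43 in KO livers, against -1.34 in wild-type 1 and -2.97 to -2.49 in the other wild-type livers. Smad7, an inhibitory SMAD that BMP signalling itself raises, read -2.57 to -2.32 in KO livers, against -1.53 in wild-type 1 and -2.55 to -2.47 in the other wild-type livers. Both were therefore highest in the liver with the most Hamp, while the KO range overlapped that of the remaining wild-type livers. That liver was highest for 14 of the 24 genes of the list, and a link to Hamp was not tested. The differences were -0.17 for Bmp6 (adjusted p = 0.836, limma) and -0.22 for Smad7 (adjusted p = 0.687). Gdf15, a stress-induced factor proposed to lower hepcidin, read -0.02, 0.07, 3.86 and 3.24 in KO livers, against -1.77, -0.76, 0.27 and -0.27 in wild-type livers. KO 3 and KO 4 alone stood high, and the difference was 2.42 (SE 0.94, adjusted p = 0.346, limma).

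Genes of the interleukin-6 and STAT3 arm were also without a call. All 13 were kept, 7 were higher and 6 lower in KO livers, and their median difference was 0.10 on 8 arrays, 0.05 on 6 and -0.008 without wild-type 1. Saa1, an acute-phase protein that interleukin-6 induces, read 0.99, 0.53, 1.27 and 1.33 in KO livers, against -0.43, 0.16, 0.32 and 0.41 in wild-type livers. All KO arrays lay above all wild-type arrays, with a difference of 0.91 (SE 0.23, adjusted p = 0.176, limma). Saa1 had the smallest p of its list, a choice that favours separate groups, and 8.62% of all kept probes did not overlap. Cebpa, a hepatocyte transcription factor that binds the Hamp promoter, differed by 0.36 (SE 0.10, adjusted p = 0.212). The cytokine gene Il6 differed by 0.90 (SE 0.47, adjusted p = 0.465) and its receptor gene Il6ra by -0.15 (SE 0.08, adjusted p = 0.462). Il6 was dim, at -4.24 to -2.30 in KO livers and -4.86 to -3.17 in wild-type livers. Its lowest values lay in the range of Hamp2 (-5.01 to -4.11), near the lower limit of the arrays.

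The other iron lists had no call either. Of the 20 genes of iron transport and reduction, 13 were higher and 7 lower in KO livers, where 56.7% of all genes were higher. Their median difference was 0.06. Cp, ceruloplasmin, the plasma ferroxidase that works with ferroportin, read 5.92, 5.93, 5.84 and 5.80 in KO livers, against 6.19, 6.10, 6.28 and 6.16 in wild-type livers. Its groups did not overlap, and the difference was -0.31 (SE 0.07, adjusted p = 0.149, limma). Cp had the smallest p of its list, a choice that favours separate groups, and 8.62% of all kept probes did not overlap. Cybrd1, a ferric reductase, differed by 0.59 (adjusted p = 0.246), Slc11a2, the iron importer DMT1, by 0.33 (adjusted p = 0.280) and Slc39a8, a zinc and iron importer, by 0.23 (adjusted p = 0.317).

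Of 13 kept genes of heme and haemoglobin handling among 15 listed, 8 were higher and 5 lower in KO livers. Over all genes 56.7% were higher. The median difference of the list was 0.13. On the 6 arrays 7 were higher and the median was 0.04, and without wild-type 1 the median was 0.19. Abcg2, an exporter of porphyrins, differed by 0.39 (adjusted p = 0.248, limma) and Bach1, a heme-binding repressor, by 0.32 (adjusted p = 0.337). Blvrb, a biliverdin reductase of red cells and liver, differed by 0.28 (adjusted p = 0.342) and the heme oxygenase gene Hmox2 by -0.21 (adjusted p = 0.351). Of 18 kept genes of iron regulatory proteins and iron-sulfur clusters among 19 listed, 14 were higher and 4 lower, with a median difference of 0.07. Ireb2, the iron regulatory protein 2 that stabilises Tfrc transcripts when iron is low, differed by 0.29 (adjusted p = 0.392). The glutaredoxin gene Glrx5 differed by 0.20 (adjusted p = 0.386) and the reductase gene Fdxr by 0.16 (adjusted p = 0.434).

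All 12 hepatocyte markers were kept, with 3 higher and 9 lower in KO livers and a median difference of -0.05. Being kept does not identify the tissue, since all 22 erythroid and all 14 macrophage markers were kept too. Cyp2e1, a cytochrome P450 that metabolises ethanol, was the only gene of the 8 lists to pass the test on 8 arrays. It fell to 2.73, 3.49, 3.18 and 3.23 in KO livers, against 7.26, 6.24, 5.94 and 6.05 in wild-type livers. The groups were far apart, with a difference of -3.22 (SE 0.29, adjusted p = 0.00448, limma) on 8 arrays and -3.35 (adjusted p = 0.0826) on 6, where the call was lost. The next smallest p was that of Tat, tyrosine aminotransferase, with a difference of -1.09 (SE 0.17, adjusted p = 0.0616).

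**Figure D5:**
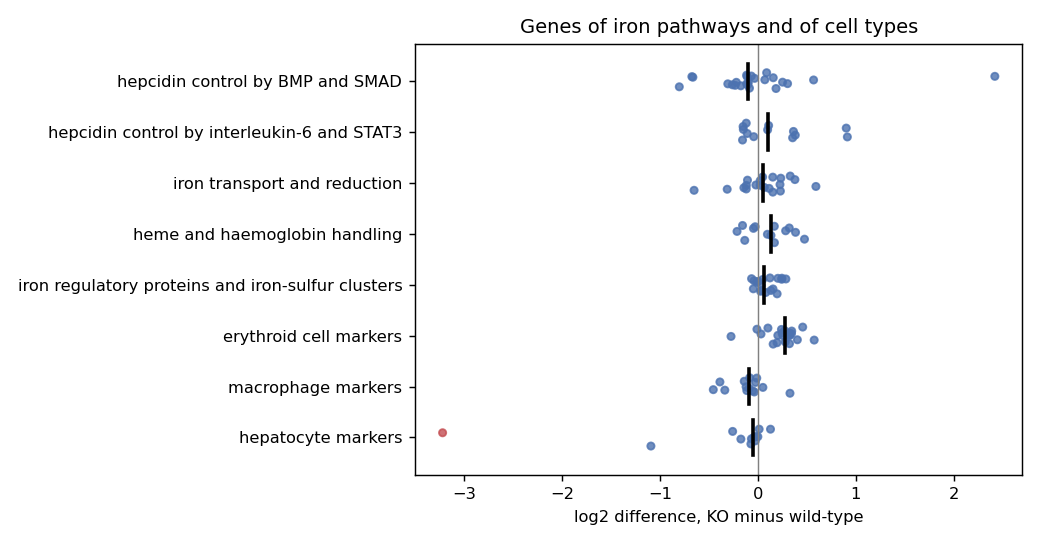
Log2 difference, KO minus wild-type, of every kept gene of the 8 lists (points), with the list median as a black bar and the gene that passed the test, Cyp2e1 at -3.22, in red. The erythroid list has the highest median at 0.28 and the BMP and SMAD list the lowest at -0.10.

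Among 21825 genes well above background on all 8 arrays, 5 had the pattern most like that of Hamp, by the root-mean-square (RMS) difference over the 8 arrays after each gene was centred on its own mean. They were Serpina3c (a serine protease inhibitor, RMS difference 0.71 log2), Acnat2 (an acyl transferase, 0.73), Kcnn2 (a potassium channel, 0.73), Apoa5 (an apolipoprotein of triglyceride metabolism, 0.74) and Sult3a1 (a sulfotransferase, 0.75). Hamp itself departed from its mean by 1.46 log2 (RMS), so a difference of this size left part of its course unmatched. Serpina3c read 0.67, 1.04, 0.94 and 1.10 in KO livers, against 4.29, 2.23, 1.87 and 2.29 in wild-type livers. Apoa5 read 0.21, 0.88, 0.27 and 0.40 in KO livers, against 3.77, 1.88, 1.22 and 1.62 in wild-type livers. Both were highest in wild-type 1, as Hamp was, but unlike Hamp they kept KO 1 below the wild-type arrays. Acnat2 and Kcnn2 did so too. In Sult3a1, KO 1 at -2.30 lay above wild-type 2, 3 and 4 (-2.77, -2.99 and -2.74), so its groups overlapped, as those of Hamp did. Sult3a1 was dim in KO 3 and KO 4 (-4.03 and -4.04), close to the levels of Hamp2. None of the 5 was called, with adjusted p-values from 0.0625 for Acnat2 to 0.427 for Sult3a1 (limma).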

How the data were processed

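RNA was labelled with Cy3 and hybridised to 1 Agilent array per sample, per the labels' protocols. The authors deposited the scanner output, spot intensity on a linear scale, which the submitters' processing notes credit to Agilent Feature Extraction 10.10, and a value table of 27084 probes in log2 units. Its deposited log2 columns matched each array's median signal on that scale (r from 0.99995 to 0.999994) with medians of 8.84 to 8.86. Coordinates are on mm9, per the file headers, and exon or UTR status was not analysed here.

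Processed signals were put on the log2 scale relative to the 75th percentile of the array. Control and outlier spots and 87 probes with all spots flagged on an array were left out, and spots of a probe were averaged. A probe was kept if well above background on at least 4 of 8 arrays. Genes were represented by their brightest kept probe. Names were updated by accession for 27235 of 55681 probes, through RefSeq (GRCm38.p6, used for names and upstream windows). KO and wild-type (n = 4 each) were compared with limma 3.58.1 (lmFit, eBayes, R 4.3.3), two-sided, without covariates, after the procedure was tested on simulated data. p-values treat the 8 arrays as separate animals, and the number of arrays limits the precision. Named genes were all 14 probes, called list genes, up to 4 genes per list with the smallest p, and the 5 genes most like Hamp; 1 list gene that this rule names is not reported here. The members and lists were chosen with earlier results of these data known. Levels of different probes are not comparable. Alternatives concerned normalization, background, filter, variance model, a replicate block, Ddx3y as a covariate and arrays left out.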

Additional observations from a re-analysis of the deposited data

Results flagged for a closer look

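In 10 of 108 groups of 4 arrays 1 array lay far from the other 3. The gap was above the critical share of 0.829 of the range. For a single group chance gives about 1 in 20. In 5 of the 10 flagged groups the array was wild-type 1. The groups came from the same arrays, and some were list means of genes also checked singly, such as Marco among the macrophage markers. They are thus not independent, and whether 10 of 108 exceeds chance was not tested. Hfe2 stood at 0.4048 in wild-type 1, against -0.31 to -0.24 in the other wild-type livers. Smad9 stood at 0.0361 and Marco, a macrophage scavenger receptor, at 6.5417 in wild-type 1, against -0.65 to -0.54 and 5.62 to 5.76 in the others. The mean level was 3.4676 for macrophage markers and 2.481 for iron regulatory proteins and iron-sulfur clusters in wild-type 1, against 3.14 to 3.18 and 2.58 to 2.59 in the others. In KO livers, Blvrb stood at 5.8021 in KO 2 (the others 5.68 to 5.69), and in KO 1 Atoh8 stood at -3.9686 (the others -3.62 to -3.56) and Fdxr at 2.6842 (the others 2.56 to 2.58). Hmox2 stood at 3.3659 in wild-type 3 (the others 3.52 to 3.55) and Ireb2 at -2.3536 in wild-type 2 (the others each at -1.95).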

How the results depend on the processing

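None of the 14 probes was called under any of the 21 alternatives that included it (limma). The deposited table gave no value for Tfrc c and Hfe, and the setting with 1 probe per gene none for Trf b, Tfrc b, Tfrc c and Ftl1 b. The number of kept probes called was 73, and 171 with normexp background correction, 166 with the median signal, 163 with the deposited table, 33 without a filter on dim probes, 193 with an intensity trend, 11 without replicate 4 of both groups, 25 without KO 3 and 4, and 20 without wild-type 3 and 4. With single arrays left out it was 26 to 92, with 46 without KO 1, 35 without KO 3, 26 without KO 4, and 35, 30 and 31 without wild-type 2, 3 and 4. The replicate number as a block gave 24, and in both groups this number is also the row of the array on the slide. The numbers do not pair the animals, since same-numbered arrays correlated by -0.10 to 0.05 in their deviations from the group means. Of the listed genes, 1 was called, Cyp2e1. It was 2 with normexp, the median signal, the deposited table, or probes well above background on all 8 arrays (Cyp2e1 and Tat), 3 with the trend (Cp added), 0 with the replicate block, 0 without replicate 4 and 0 without KO 3 and 4, and 1 to 3 with 1 array left out, when Cybrd1 and Tat were added without KO 2 and Hmox1 without wild-type 1.

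Hamp was lower in KO livers in all alternatives, with differences of -2.82 to -1.68, and of -2.30 to -1.06 with 1 array left out. The Tfrc and Ftl1 b probes stayed positive and Hamp2 and Tfr2 negative. With 1 array left out, Hamp2 ran from -0.347 to -0.113 (without KO 2), Tfr2 from -0.205 to -0.0806 (without wild-type 1) and Ftl1 b from 0.0562 (without wild-type 1) to 0.125, and the lowest Tfrc values, without wild-type 1, were 0.302 for a, 0.242 for b and 0.435 for c. Signs turned for small differences, none of them called: Trf b was 0.0197 in the deposited table and 0.0135 without KO 3 and 4, Hfe2 was -0.0728 without replicate 4, -0.112 without KO 3 and 4 and -0.138 without wild-type 3 and 4, Slc40a1 was -0.0126 with Ddx3y as a covariate, and Fth1 was 0.00958 with normexp and 0.00754 with Ddx3y. With 1 array left out, Trf a ran from -0.0492 to 0.0584, Trf b from -0.0561 to 0.0275, Hfe from -0.149 to 0.0300, Hfe2 from -0.0281 to 0.210, Slc40a1 from -0.0917 to 0.180, Fth1 from -0.0491 to 0.0266 and Ftl1 a from -0.00724 to 0.0516. The cause of these changes was not tested. Limits are the 4 arrays per genotype, the shared slide column, the doubt over replicate 4 and the low signal of Hamp2.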
